A study of Mus musculus with 2 samples.

Results

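H/ACA small nucleolar RNAs are the Snora genes of the mouse, and their reads were examined in total RNA from limbs of embryos at embryonic day 12.5. The members were the genes listed for both libraries whose GENCODE M21 symbol begins with Snora and whose deposited length is at least 120 nt. GENCODE M21 names 42 such genes, 41 were matched in both tables, and the length limit removed 0 of them. They were 41 of 43346 Ensembl genes in the tables. The limbs came from B6NCrl embryos of both sexes, with 88 embryos pooled for replicate 1 and 68 embryos pooled for replicate 2. The 2 libraries form 1 group with no treatment or genotype contrast, and each was made from 10 ng of RNA of a size above 200 nt, per the labels.

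H/ACA RNAs fold into hairpins that pair with ribosomal RNA and guide the conversion of chosen uridines to pseudouridine. Each is bound by the proteins Dkc1, Nhp2, Nop10 and Gar1, of which Dkc1 is the enzyme. In mammals most are cut out of the introns of other genes, often genes for ribosomal proteins and translation factors, rather than made from promoters of their own. The class is named after a box H with the letters ANANNA in the hinge between the hairpins and an ACA close to the 3′ end.

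The sequences below are 2 members with at least 10 expected counts in both libraries, followed by a near-identical pair on chromosome 4. Of this pair, Snora73b has the only difference called between the libraries among the members tested. They are GENCODE M21 transcripts on GRCm38, written 5′ to 3′. Capitals mark the ANANNA match closest to the midpoint and the ACA that stands exactly 3 bases before the end.
Snora57: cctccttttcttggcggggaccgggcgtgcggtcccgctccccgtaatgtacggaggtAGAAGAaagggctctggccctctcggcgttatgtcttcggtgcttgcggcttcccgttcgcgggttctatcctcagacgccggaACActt
Snora28: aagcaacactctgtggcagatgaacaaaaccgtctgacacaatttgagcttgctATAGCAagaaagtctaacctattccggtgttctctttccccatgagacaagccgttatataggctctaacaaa
Snora73b: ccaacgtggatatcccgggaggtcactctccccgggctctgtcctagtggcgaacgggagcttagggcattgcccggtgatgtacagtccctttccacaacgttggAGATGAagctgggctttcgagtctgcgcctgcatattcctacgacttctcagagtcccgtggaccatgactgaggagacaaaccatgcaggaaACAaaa
Snora73a: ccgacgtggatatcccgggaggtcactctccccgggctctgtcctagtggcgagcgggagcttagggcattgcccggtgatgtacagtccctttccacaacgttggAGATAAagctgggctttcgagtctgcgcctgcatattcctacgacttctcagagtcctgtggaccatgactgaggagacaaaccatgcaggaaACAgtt
Snora57 lies at chr19:8888538-8888685 on the minus strand and Snora28 at chr12:111540941-111541067 on the plus strand. Snora73b lies at chr4:132352322-132352526 and Snora73a at chr4:132352775-132352979, both on the minus strand. In Snora28 the ACA falls at another distance within the last 10 bases of the annotated transcript, so it is not in capitals.

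The letters of the class were read in every member except one that is set apart by its length and described further on. An ACA stood exactly 3 bases before the end in 33 of 40 members (82.5%), against 0 of 99 transcripts of box C/D genes (Snord), which carry other boxes. The same placement was found in 23.2% of 838 other transcripts of snoRNA type and in 8.21% of all 2876 M21 transcripts in the length range of the members. An ANANNA on the transcript strand, in the second of 3 equal parts of the sequence, was present in 37 members (92.5%), against 44.4% of the Snord transcripts, 86.5% of the other snoRNA-type transcripts and 64.9% of all transcripts in the length range. Both features occurred together in 31 members (77.5%), 0 Snord transcripts, 21.2% of the other snoRNA-type transcripts and 7.44% of all transcripts of that length. Snora78, Snora65 and Snora74a had no ANANNA in that part, and Snora44 and Snora81 had no ACA in the last 10 bases. The median GC content of the members was 48.5%, with a range of 33.3% to 64.1%.

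The limb identity of the libraries was read from genes with known expression. Prrx1, a homeobox gene of limb mesenchyme, averaged 165 ± 3.17 TPM (reads scaled by gene length and library size, SD, n = 2), and Sox9, which drives cartilage formation, averaged 207 ± 1.03 TPM. Of the 2 heart genes, Nkx2-5 was listed at 0 in both libraries and Myl7 had 1.96 TPM in replicate 1 and 1.08 TPM in replicate 2. Of the 2 liver genes, Alb had 0.77 TPM in replicate 1 and 0.49 TPM in replicate 2, and Afp had 4.14 and 2.45 TPM. Hbb-y, a globin gene of red blood cells, averaged 7150 TPM. Tbx5 of the limb list had 35.2 TPM in replicate 1 and 24.1 TPM in replicate 2, and Pitx1 had 142 and 173 TPM. The part of heart, liver and blood cells in the members' counts was not tested. The libraries held 29810026 expected counts in replicate 1 and 29938721 in replicate 2. An expected count is an estimated number of reads for a gene that need not be whole. The biological coefficient of variation between the libraries was 0.0698 over the 16488 genes that had 10 or more counts in each.

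One member was unlike the others in its deposited length and was set apart. It is a second gene with the symbol Snora43 (ENSMUSG00000097052), which M21 places at chr2:26637847-26637985 on the minus strand with a span of 139 nt. Its length was 1474.33 nt in replicate 1 and 1530.94 nt in replicate 2, and the transcript tables list 2 transcripts for it, of 741 nt and 2366 nt. RefSeq places the long noncoding gene Snhg7 over this position. The gene had 374 expected counts in replicate 1, 75.8% of the counts of all 41 members there. It had 397 in replicate 2, or 73.8%. The reads of the 741-nt and 2366-nt transcripts are counted for this gene, so its level covers these longer transcripts. The annotation used for the tables was an older release than M21. The values that follow leave this gene out as a member, except in an alternative for the summed level that adds it back. It stays in the host values as the host of the short Snora43 gene. The remaining 40 members had lengths of 121 to 205 nt, with a median of 132.5 nt.

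Few reads fell on the 40 short members. Only 2 of the 40 are longer than 200 nt, the size above which RNA was taken per the labels. The effect of this size selection on the counts was not tested. The 40 members summed to 119.41 expected counts in replicate 1 and 141.16 in replicate 2. Scaled to library size, this was 4.01 CPM in replicate 1 (exact 95% binomial interval 3.307 to 4.777) and 4.71 CPM in replicate 2 (3.964 to 5.554). An expected count of at least 1 in both libraries, here called detected, was found for 20 members. Another 11 members were at 0 in both libraries, 2 were above 0 in replicate 1 only and 7 in replicate 2 only. A count of 0 allows up to 3 counts as a one-sided 95% limit (3.69 as the upper end of the two-sided Poisson interval), and the 3 counts are 0.1006 CPM in replicate 1 and 0.1002 CPM in replicate 2. The members detected had a median of 3.63 counts, so the lower of them are not separated from members at 0 at this depth. The median over all 40 was 1 count in replicate 1 and 1.865 counts in replicate 2. Across members, the counts of replicate 1 and replicate 2 had a Spearman correlation of 0.722 (n = 40), a description over genes that share libraries.

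Reads were concentrated on a handful of members. The 4 members with the highest mean count over both libraries, Snora57, Snora28, Snora68 and Snora73b, together held 55.6% of the short members' counts in replicate 1 and 41.3% in replicate 2.

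**Figure D1:**
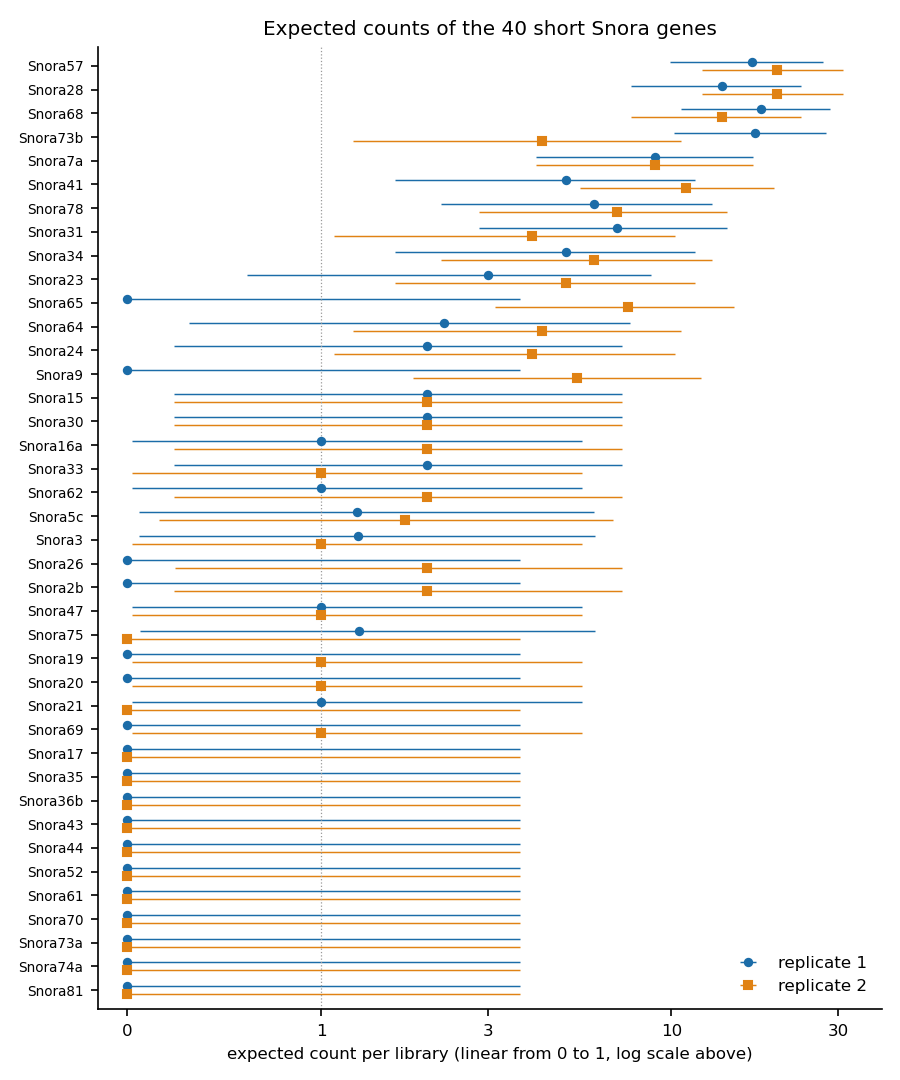
Expected counts of the 40 short Snora genes in replicate 1 (circles) and replicate 2 (squares), with exact 95% Poisson intervals as bars, ordered by mean count. Snora57, Snora28 and Snora68 lie above 10 in both libraries, and the lowest 11 genes lie at 0 in both.

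Snora57, whose human counterpart guides a modification of small-subunit ribosomal RNA, had 17 expected counts in replicate 1 (exact 95% Poisson interval 9.90 to 27.2) and 20 in replicate 2 (12.2 to 30.9). Its level per length was 18.5 TPM in replicate 1 and 21.6 TPM in replicate 2. The intervals of the libraries overlap for nearly their whole length. Snora28, another guide for small-subunit ribosomal RNA in human cells, had 14 counts in replicate 1 (7.65 to 23.5) and 20 in replicate 2 (12.2 to 30.9). It had the highest mean TPM of the short members, with 26.7 in replicate 1 and 37.9 in replicate 2. Snora68 had 18 counts in replicate 1 (10.7 to 28.4) and 14 in replicate 2 (7.65 to 23.5). Its level was 30.03 TPM in replicate 1 and 23.19 TPM in replicate 2. Which of Snora28 and Snora68 was higher differed between the libraries, so their order is not fixed by these data.

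Below these came members with single-digit counts in at least 1 library. Snora7a, whose human counterpart guides a modification of large-subunit ribosomal RNA, had 9 counts in each library and 11.7 and 11.6 TPM. Snora41 had 5 counts and 8.09 TPM in replicate 1, and 11 counts and 17.7 TPM in replicate 2. Snora78 had 6 counts in replicate 1 and 7 in replicate 2, at 11.04 and 12.8 TPM. Snora31 had 7 counts in replicate 1 and 4 in replicate 2, at 12.1 and 6.84 TPM. Snora34 had 5 counts in replicate 1 and 6 in replicate 2, at 6.84 and 8.16 TPM. Snora23, a guide for large-subunit ribosomal RNA in human cells, had 3 and 5 counts at 1.88 and 3.12 TPM, the low TPM going with its length of 184 nt. The Poisson intervals of the 2 libraries overlapped for each of these members. Among the remaining members detected in both libraries, apart from Snora73b, which is described further on, counts lay between 1 and 4.27.

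The TPM scale magnifies small counts in genes this short. The deposited effective length was the length minus 99 nt, which left 22 to 106 nt for the short members. A single expected count was therefore worth 1.06 to 2.40 TPM for members under 150 nt. The 20 members with a count of at least 1 in both libraries were also 20 with a TPM of at least 1 in both. Their median level was 5.04 TPM, over a range of 1.37 to 32.3 TPM. The 4 members closest to the length limit included Snora26 of 121 nt, with 0 counts in replicate 1 and 2.01 in replicate 2, or 0 and 4.83 TPM. The next was Snora28 at 127 nt, and the short Snora43 gene of the same length was at 0 in both. No matched Snora gene lay below the limit.

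Detection was set beside that of other small RNA genes, by length. Of the 40 short members 20 (50%) were detected, against 3 of 97 Snord genes (3.09%). The 86 Snord genes of 99 nt or less, for which no effective length remains, were all at 0. Among Snord genes of at least 120 nt, 2 of 5 were detected. Among small Cajal body RNA genes (Scarna) of at least 120 nt, 3 of 7 were detected, including Scarna13 with 20 counts in replicate 1 and 33 in replicate 2. In the length range of the members, 49 of 828 other genes of snoRNA type (5.92%) and 36 of 304 of snRNA type (11.8%) were detected. Over all Ensembl genes of that length the share was 8.74% of 2036, and over all lengths 49.1% of 43346.

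**Figure D2:**
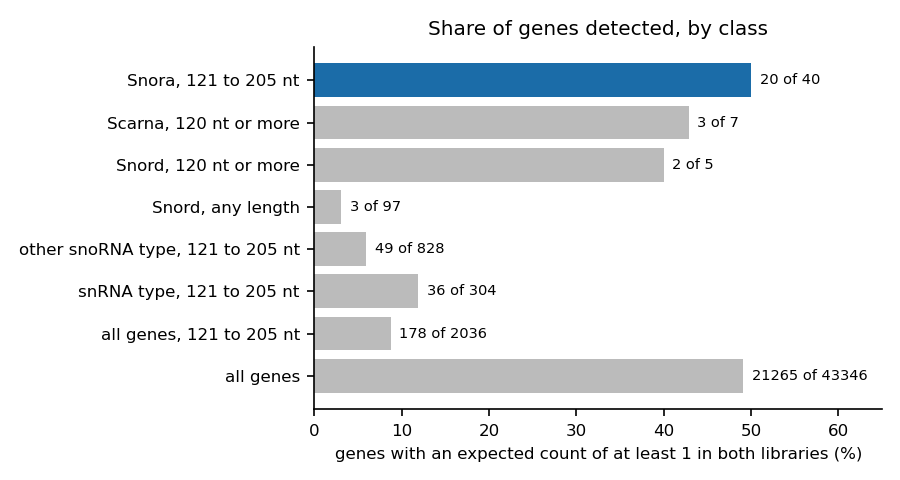
Share of genes with an expected count of at least 1 in both libraries, by class, with the number detected of the number listed beside each bar. The bar of the 40 short Snora genes stands at 50%, and that of the 97 Snord genes at 3.09%.

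Position in the genome followed the intronic pattern of the class. A gene on the same strand that spans the whole member was listed for 36 of the 40, through 32 distinct genes, called hosts here. M21 types the host of 26 as protein coding. Of the other 10, 8 lie in Snhg genes or Dancr, 1 in Cct6a (a chaperonin subunit that M21 types as a processed transcript) and 1 in the second Snora43 gene. Ribosomal protein genes held 11 members and translation factor genes 4. No host row was found for Snora17, Snora24, Snora57 and Snora74a. RefSeq places Snora17 within the span of Snhg7, Snora24 within Snhg8, Snora74a within Snhg4 and Snora57 within the long noncoding gene 5730408K05Rik. Snhg7 is also the RefSeq gene over the second Snora43 gene set apart above, so the counts of that gene and of Snhg7 cannot be told apart, and no gene was matched under the names Snhg7 and Snhg8. Snora57 also lies within Lbhd1, which is on the opposite strand.

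Within the host, 35 members lay in an intron, with a median intron length of 474 nt. The median distance to the downstream exon was 168 nt, with quartiles of 77 and 352 nt and a range of 49 to 77876 nt. For 93 Snord genes in introns the median was 94 nt, with quartiles of 75 and 821 nt. A distance of 60 to 90 nt was found for 31.4% of the members and 39.8% of the Snord genes. Snora35 lay farthest from its exon. The quartiles of the classes overlap, and the Snord distances include a cluster of genes in 1 intron of 183030 nt.

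**Figure D3:**
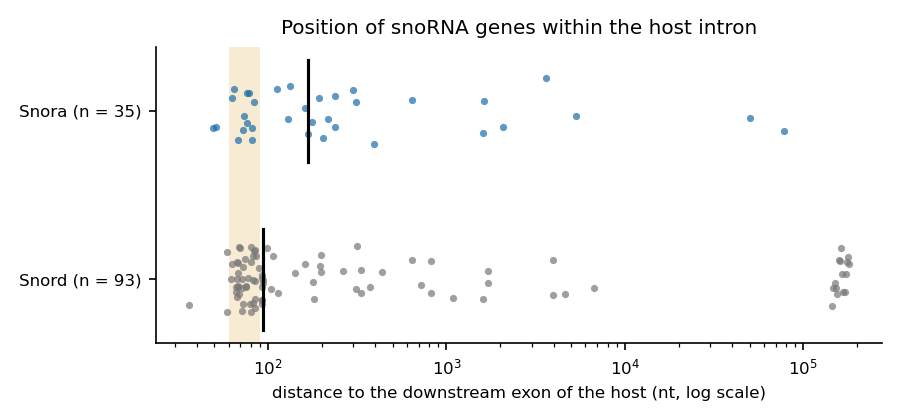
Distance from the 3′ end of each snoRNA gene to the next exon of its host, in nt on a log scale, for 35 Snora genes (top) and 93 Snord genes (bottom). Vertical bars are medians, 168 and 94 nt, and the shaded band spans 60 to 90 nt.

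The host genes had far higher TPM than the members they contain, in RNA taken above 200 nt. Most members are shorter than that, so the ratios describe these libraries and not levels in the tissue. Not one of the 36 hosted members had a higher TPM than its host in both libraries, and 34 were lower in both. The median log2 ratio of member over host, with 0.1 TPM added to each, was -7.06. It was -5.12 over members detected in both libraries, a choice made after seeing the data, and for members at 0 the ratio is set by the added 0.1 TPM. Host levels had a median of 179 TPM and a range of 0.035 to 1858 TPM. Across members, the mean count and the mean host TPM had a Spearman correlation of 0.259 (n = 36), given as a description of genes in the same libraries.

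The 11 members in ribosomal protein genes summed to 34.51 counts in replicate 1 and 39.78 in replicate 2, and 6 were detected. The median TPM of their hosts was 536 in replicate 1 and 551 in replicate 2. Snora7a lies in Rpl32, the host with the highest TPM, and reached 0.649% of it in replicate 1 and 0.609% in replicate 2. Snora52 in Rplp2 and Snora70 in Rpl10 were at 0 in both libraries, beside hosts that averaged 1043 and 687 TPM. All windows of both members are shared with retained-intron transcripts of these hosts, as described further on.

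The 4 members in translation factor genes summed to 19 counts in replicate 1 and 32 in replicate 2. Their hosts had a median TPM of 204.19 in replicate 1 and 204.81 in replicate 2. Snora28 lies in an intron of Eif5, an initiation factor. Its TPM was 13.1% of the host's in replicate 1 and 17.96% in replicate 2, a mean log2 ratio of -2.70 ± 0.32 (SD, n = 2). Snora41 lies in Eef1b2, an elongation factor subunit, and its TPM was 1.65% of the host's in replicate 1 and 3.98% in replicate 2. Snora19 in Eif3a had 0 counts in replicate 1 and 1 in replicate 2, and Snora81 in Eif4a2 was at 0 in both. All 79 windows of Snora81 are shared with Eif4a2.

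The 8 members in Snhg genes or Dancr summed to 24.36 counts in replicate 1 and 20.65 in replicate 2. These hosts are RNAs with no known protein product, and their median TPM was 47.3 in replicate 1 and 37.3 in replicate 2. Snora78 lies in Snhg9, and its TPM was 59.9% of the host's in replicate 1 and 107% in replicate 2. It was the hosted member nearest to its host and the only one above it in a library. Both values rest on few reads, 6 and 7 for Snora78 and 29 and 19 for Snhg9. Snhg12 contains Snora16a, Snora44 and Snora61, and at 19.5 TPM in replicate 1 and 16.8 TPM in replicate 2 it held 1 and 2 counts of Snora16a and none of Snora44 or Snora61. All 30 windows of Snora44 and all 31 of Snora61 are shared with Snhg12, as described further on.

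The remaining 13 hosted members summed to 22.54 counts in replicate 1 and 24.73 in replicate 2. Snora31 lies in Tpt1, a highly expressed gene for a growth-related protein, and its TPM was 1.45% of the host's in replicate 1 and 0.762% in replicate 2. Snora34 in Kansl2, a subunit of a histone acetyltransferase complex, had 4.44% and 5.17% of its host's TPM. Snora2b in another intron of Kansl2 had 0 counts in replicate 1 and 2 in replicate 2. Snora23 in the nuclear import gene Ipo7 had 5.06% of its host's TPM in replicate 1 and 9.13% in replicate 2. Snora35 lies in the serotonin receptor gene Htr2c and is known from brain. It was at 0 in both libraries, with 0 counts of Htr2c in replicate 1 and 6 in replicate 2. In these tables, reads of a finished H/ACA RNA and reads of an unspliced host transcript across the same bases cannot be told apart.

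**Figure D4:**
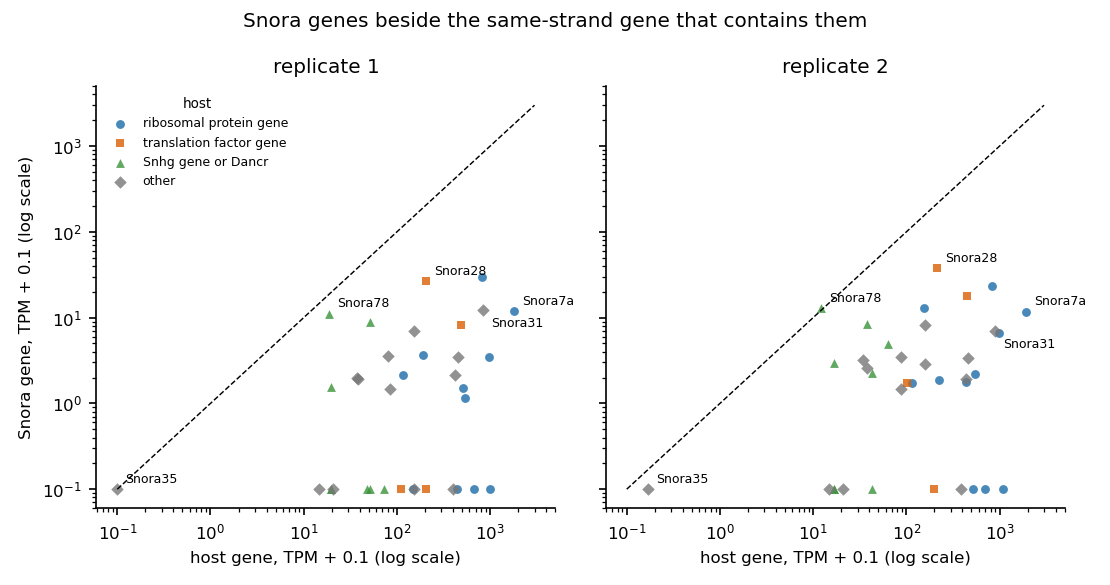
TPM of each of the 36 hosted Snora genes (vertical) against the TPM of its host (horizontal), both with 0.1 added and on log scales, in replicate 1 (left) and replicate 2 (right). The dashed line marks equal levels, and in replicate 2 Snora78 alone lies above it, and the bottom line of points holds genes at 0.

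Part of the counts depended on how reads were divided between genes. The quantifier gives a posterior standard deviation of each count, which is at 0 where no read has to be divided. It was above 0 for 17 of the 40 short members in at least 1 library, and 33 members had whole counts (within 0.01) in both. Each member was cut into windows of 100 nt, whose number equals the deposited effective length where M21 and the tables give the same length. Each window was looked for in the M21 sequences of the other listed genes. Sharing with transcripts that differ in the older annotation could not be seen. The second Snora43 gene, for example, was searched at 139 nt, although its deposited transcripts are 741 and 2366 nt long. A window shared on the same strand was found for 15 members, and 14 of these had a posterior SD above 0, the exception being Snora44. No shared window was found in M21 for 24 members, and 22 of these had a posterior SD of 0, the exceptions being Snora17 and Snora74a. Retained-intron transcripts of the host covered 9 members.

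Shared members carried few of the reads. The 15 with a same-strand window summed to 6.05 counts in replicate 1 and 22.89 in replicate 2, with 3 detected in both and 7 at 0 in both. A count of 0 for a member that shares windows does not show that its RNA gave no reads. The 24 with no shared window found in M21 summed to 96 counts in replicate 1 and 114 in replicate 2, with 16 detected and 4 at 0 in both. Snora65, all of whose 31 windows are shared with a retained-intron transcript of Rpl12, had 0 counts in replicate 1 and 7.51 in replicate 2, with posterior SDs of 0.97 and 2.47. Snora9, within Snhg15, had 0 counts in replicate 1 and 5.37 in replicate 2, with posterior SDs of 0.57 and 2.21. Snora64, within Rps2, had 2.24 counts in replicate 1 and 4.27 in replicate 2, with posterior SDs of 1.5 and 1.68. None of the 3 reached the 10 summed counts needed for a test.

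**Figure D5:**
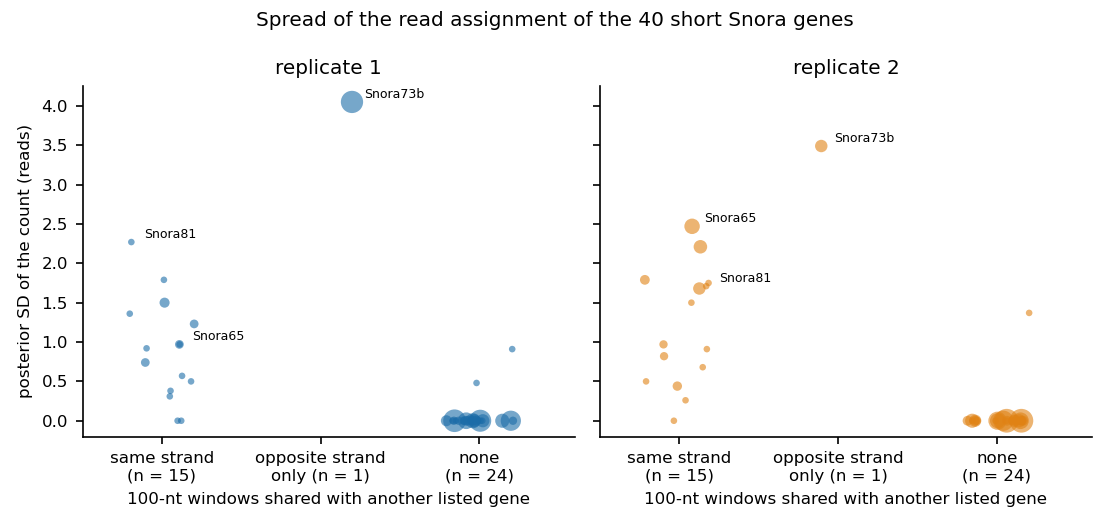
Posterior SD of the count for the 40 short Snora genes in replicate 1 (left) and replicate 2 (right). Genes are grouped by whether any 100-nt window is shared with the M21 sequence of another listed gene. Point area grows with the expected count. Genes with no shared window lie at 0 apart from Snora17 and Snora74a, and Snora73b lies highest at 4.05 and 3.49 reads.

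Snora73a and Snora73b are copies of the RNA also called U17 or E1, which acts in the processing of small-subunit ribosomal RNA rather than as a known guide. At 205 nt each they were the only members above 200 nt, and both lie in introns of Snhg3. They are identical at 198 of 205 aligned positions (96.6%), as the sequences printed above show. Snora73b had 17.36 counts in replicate 1 (10.2 to 27.7) and 4.27 in replicate 2 (1.23 to 10.6), while Snora73a had 0 in both. The posterior SD of Snora73b was 4.05 in replicate 1 and 3.49 in replicate 2, and that of Snora73a was 1.79 and 1.75. All 106 windows of Snora73b are also present, on the opposite strand, in an exon of Gm17300, and the sources used here do not say whether the counting used strand. Snora73a shares 76 of its 106 windows with Gm17300 on the opposite strand and 60 with an Snhg3 transcript on its own strand, while no window of 100 nt is identical between Snora73a and Snora73b. The counts of both genes are uncertain.

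Each gene was set against the ratio of library totals in an exact binomial test on rounded counts, and a gene was called where the Benjamini-Hochberg adjusted p was under 0.05 and the libraries differed at least 2-fold. This covers counting error only and compares 2 libraries of 1 group, not conditions. Over all genes with at least 10 summed counts, 1.7% of 18580 were called, 0.721% as higher in replicate 1. Of the 9 short members with enough counts, 1 was called, and so few members give no share to set against that background. Snora73b was higher in replicate 1, with a log2 ratio of replicate 1 over replicate 2 of 2.09 (exact binomial test, adjusted p = 0.0447). In the same exact binomial test, the call was lost when posterior mean counts were used (log2 ratio 1.59, adjusted p = 0.107). It was also lost when all genes with at least 1 summed count were tested (adjusted p = 0.0582). The exact test of edgeR did not call Snora73b either, but it called 0 of 18580 genes. Its spread was estimated from the same 2 libraries that it compared, so it cannot decide on this call. In bulk tissue, fewer cells with an RNA and less of it in each cell cannot be told apart.

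The other 8 tested members had log2 ratios of -1.13 to 0.81, and the lowest adjusted p among them was 0.471 (exact binomial test). The lowest value was that of Snora41 and the highest that of Snora31. The median ratio of the 9 tested members was -0.22, against -0.0045 over all genes tested. With 4 members higher and 5 lower in replicate 1, the members did not share a direction. The differences of Snora57 and Snora28, whose counts were higher in replicate 2, and of Snora68, whose count was higher in replicate 1, were within counting error.

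The genes for proteins that act with H/ACA RNAs had far more reads, and only their RNA was measured. Dkc1, the pseudouridine synthase, averaged 123 ± 0.643 TPM (SD, n = 2), Nhp2 122 ± 4.35 TPM, Nop10 147 ± 8.90 TPM and Gar1 95.03 ± 2.94 TPM. The mean TPM of all 4 core protein genes lay within 2-fold of each other. Assembly factors ranged from Naf1, which holds the place of Gar1 in the precursor particle, at 3.01 ± 0.205 TPM to the ATPase Ruvbl1 at 134 ± 2.97 TPM. The genes for the core proteins of the box C/D class, Fbl, Nop56, Nop58 and Snu13, averaged 136, 328, 241 and 239 TPM. Among 10 genes of RNA end processing and trafficking, Exosc10 of the nuclear exosome averaged 93.3 TPM, the exonuclease Xrn2 78.6 TPM, the trimming enzyme Parn 33.0 TPM and the poly(A) polymerase Tent4b 9.26 TPM. No gene of these lists was called between the libraries, by a rule that called 1.7% of 18580 genes. So few genes cannot be set apart from that share. Nop10, Nop58, Fbl, Dis3, Wrap53 and Xrn1 had an adjusted p under 0.05 (exact binomial test) but differed less than 2-fold. Without the fold limit, 2993 of all 18580 genes tested had an adjusted p under 0.05, and these few genes cannot be set apart from that share either.

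Noncoding hosts that carry mainly box C/D genes were also abundant. Gas5 averaged 587 ± 25.6 TPM, Snhg5 107 ± 1.66 TPM and Snhg6 105 ± 6.92 TPM, while Snhg3, host of the Snora73 pair, averaged 47.0 ± 5.70 TPM. Terc, the telomerase RNA, shares the H/ACA fold and proteins and is longer at 423 nt. It had 7 counts in replicate 1 and 10 in replicate 2, or 1.15 and 1.64 TPM. Its count was in the range of Snora41 and Snora78 despite its length.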

How the data were processed

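Total RNA-seq tables for 2 replicate libraries of mouse limb were used. Per text notes deposited with the samples, reads were assigned on mm10 with GENCODE M4. The aligner, the quantifier and its use of strand were not given in the sources used here. Per the file headers, the deposited expected counts are estimates that need not be whole, and they were rounded for count tests. The deposited TPM and FPKM values are scaled by effective length and depth, per the file headers. The posterior standard deviations come from the same authors' tables.

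Symbols, spans and hosts were added from GENCODE M21 by gene identifier; the host is the shortest same-strand gene containing the member. A quasi-likelihood test in edgeR needs more than 1 group. An exact conditional binomial test against the library totals was therefore used over genes with at least 10 summed counts, checked on simulated data. The simulation held counting error only and placed changes in genes with more counts than any short member. It does not show how often a change at the members' counts would be called. TMM, the dispersion and the exact test came from edgeR 4.0.16, alternative size factors from DESeq2 1.42.0. Sequences were read from GENCODE M21 transcripts. No molecular identifiers are recorded, so intervals and the floor of 3 counts cover counting error only.

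The text names the 10 members with the highest mean count and TPM, those called, those of at least 200 nt, those nearest the length limit, and genes of fixed lists; further members were chosen after their values were seen. Members and lists were chosen with earlier results of these data known. Setting apart the long Snora43 gene was chosen after seeing the data. One host gene that this rule would take is not reported here.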

Additional observations from a re-analysis of the deposited data

How the results depend on the processing

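Of 59 alternatives for the summary values, 41 left them within a set fold limit (counts) or within the spread of libraries or members (levels). The other 18 moved them, and a reversal was not scored for these values. The 41 include alternatives without a length minimum, which repeat the main values because that limit removed no gene. The 20 members detected became 10 at a minimum of 3 counts and 3 at a minimum of 10, and lay between 22 and 27 when either library was left out. Members with at least 1 TPM numbered 39 with posterior mean TPM, against 20, and 22 to 27 in 1 library alone. The 39 do not count detected members, because posterior mean TPM exceeds 1 even for short genes without reads. Snora35, with 0 counts in both libraries, had a posterior mean TPM of 1.79 in replicate 1 and 1.77 in replicate 2. The summed level of 4.36 CPM over both libraries became 2.64 without the 3 highest members and 17.3 with the long Snora43 gene, an alternative added after seeing the data, and lay between 4.01 and 4.71 with either library left out. The median of 5.04 TPM became 3.17 in FPKM, 6.40 with posterior mean TPM and 1.99 over all short members, and lay between 3.5 and 4.95 in 1 library alone.

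The 1 call between the libraries became 0 with at least 1 summed count, 0 with posterior mean counts and 0 with edgeR's exact test, which called 0 of 18580 genes. That last test took its spread from the same 2 libraries that it compared, so it cannot decide on the call. A minimum of 100 summed counts left no short member to test. Members above their host in both libraries numbered 1 with posterior mean TPM and 0 to 1 in 1 library alone, against 0. The member above its host by posterior mean TPM was Snora35, which had 0 counts in both libraries. Its posterior mean TPM was 1.79 in replicate 1 and 1.77 in replicate 2, against 0.24 and 0.3 for Htr2c, so no reads of Snora35 lie behind this. The median log2 ratio over the host was -5.27 with a pseudocount of 1, -11.1 in expected counts, -5.12 over members detected in both libraries, and -7.43 to -6.48 in 1 library alone. A limit of 1 count for the posterior SD left 10 members, against 17, and either library alone gave 16. In all 48 alternatives for single members the direction held, and 45 left the call unchanged.

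No paired analysis was possible because the 2 libraries form 1 group. Depth and the RNA size limit of 200 nt restrict the statements on levels. At 4.36 CPM most members had under 10 reads. The difference between a member at 0 and one with 1 to 3 counts was not detectable.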
